A study of Mus musculus with 10 samples.

Results

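Guanylate-binding proteins (GBPs) and immunity-related GTPases (IRGs) are GTP-hydrolysing enzymes that mouse cells make in response to interferon gamma. The genes described are 10 of the 18398 genes in the deposited table: Gbp2, Gbp3, Gbp4, Gbp5, Gbp6 and Gbp7 of the GBP family, and Irgm1, Irgm2, Igtp and Iigp1 of the IRG family. They were taken by name from a list of interferon gamma-inducible GTPases, and all 10 were present. RNA of the mouse colon was sequenced from 10 samples labelled as wild type (WT). Of these, 5 were labelled as normal diet and titled CN-1 to CN-5, and 5 were labelled as pro-inflammatory diet and titled PI-1 to PI-5. The composition of the diets, the strain, sex and age of the mice, and any induction of colitis, to which the series' title refers, are not given in the sources used here. Nothing in the labels ties the samples to separate animals. The p-values therefore cover the spread between these 10 samples, some of which may be technical.

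Interferon gamma binds a receptor of IFNGR1 and IFNGR2 chains, whose kinases JAK1 and JAK2 pass the signal to transcription factors. These bind gamma-activated sequences (GAS) near target genes, and other interferon-activated factors such as IRF1 bind interferon-stimulated response elements (ISRE). GBPs gather on the membranes of pathogen-containing vacuoles and on bacteria in the cytosol, and help to expose their contents to caspases and inflammasomes. Among the IRGs, Irgm1, Irgm2 and Igtp (also called Irgm3) sit on the cell's own membranes and hold effector IRGs such as Iigp1 (also called Irga6) inactive until these load onto a pathogen's vacuole. In mice Irgm1 is also known for its part in autophagy and in intestinal inflammation.

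The 10 genes lie on 4 chromosomes in the GENCODE M21 annotation of GRCm38. Gbp5 (chr3:142493978-142522344), Gbp7 (chr3:142530342-142550149), Gbp3 (chr3:142560026-142573209) and Gbp2 (chr3:142620602-142638008) follow each other on the plus strand of chromosome 3. Gbp4 (chr5:105115767-105139586) and Gbp6 (chr5:105270702-105293698) are on the minus strand of chromosome 5. Igtp (chr11:58199556-58207591) and Irgm2 (chr11:58199618-58222782) overlap on the plus strand of chromosome 11, and Irgm1 (chr11:48861968-48871683) is on the minus strand of the same chromosome. Iigp1 is on chromosome 18.

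The sequences before the RefSeq start of these genes are shown as background on the motifs named above. They are taken from the reference genome, not from the libraries, and a link to the levels in single libraries was not tested. RefSeq promoters (GRCm38.p6) were matched by symbol for 7 of the 10 genes, with 2 entries for Gbp3. Gbp4, Gbp6 and Iigp1 had no entry. The GENCODE spans above take in transcripts that begin earlier, so the Gbp5, Irgm2 and Irgm1 sequences lie inside them and that of Gbp2 crosses its edge. Those of Gbp2 and Irgm1 are inside an exon of a GENCODE transcript. The 250 bases before each start were searched for an ISRE-type motif (GAAA, any 2 bases, GAAA) on either strand, and for a GAS-type motif, TTCNNNGAA, which reads the same on both strands. In the sequences below, 5′ to 3′ on the strand of the gene, capitals mark the matches, and an ISRE-type match on the opposite strand appears as TTTC, any 2 bases, TTTC. Gbp7, Igtp and Irgm2 are shown over all 250 bases, and the others only around their ISRE-type matches.

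Gbp7 (chr3:142530086-142530335, plus strand): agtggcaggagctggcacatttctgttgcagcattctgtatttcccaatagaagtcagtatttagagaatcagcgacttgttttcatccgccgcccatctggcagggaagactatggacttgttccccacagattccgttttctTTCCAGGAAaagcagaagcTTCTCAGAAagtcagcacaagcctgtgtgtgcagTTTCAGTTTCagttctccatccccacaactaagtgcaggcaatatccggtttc
Igtp (chr11:58199306-58199555, plus strand): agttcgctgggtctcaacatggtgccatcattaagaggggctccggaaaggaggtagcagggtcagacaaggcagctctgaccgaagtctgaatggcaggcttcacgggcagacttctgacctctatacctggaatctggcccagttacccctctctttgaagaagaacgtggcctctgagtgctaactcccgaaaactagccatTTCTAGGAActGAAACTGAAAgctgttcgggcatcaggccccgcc
Irgm2 (chr11:58214727-58214976, plus strand): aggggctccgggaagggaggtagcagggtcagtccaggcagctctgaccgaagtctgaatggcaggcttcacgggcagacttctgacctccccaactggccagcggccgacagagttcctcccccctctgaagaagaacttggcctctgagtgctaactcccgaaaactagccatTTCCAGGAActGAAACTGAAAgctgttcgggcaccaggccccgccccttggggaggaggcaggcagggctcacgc
Gbp5 (chr3:142496744-142496803, plus strand): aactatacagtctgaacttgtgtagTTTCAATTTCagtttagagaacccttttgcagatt
Gbp3 (chr3:142559974-142560025, plus strand): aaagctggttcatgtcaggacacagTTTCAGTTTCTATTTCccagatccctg
Gbp2 (chr3:142620594-142620623, plus strand): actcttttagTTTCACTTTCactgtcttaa
Irgm1 (chr11:48871428-48871457, minus strand): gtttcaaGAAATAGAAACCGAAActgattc

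All 7 genes had an ISRE-type match, in 7 of the 8 entries, and the second Gbp3 entry had none. Over all 32851 promoters of the same length, 978 (2.98%) had one. Gbp5, Gbp7, Igtp and Irgm2 also had a GAS-type match, which 2306 promoters (7.02%) held, and 109 promoters (0.332%) held both. Gbp5 and Gbp7 had 2 GAS-type matches each, and those of Gbp5 lie outside the stretch printed above. The ISRE-type matches of Irgm1 began 30 and 24 bases before the start and overlapped, as did those of Gbp3, at 45 and 39 bases. In Igtp the GAS-type match began 45 and the ISRE-type match 34 bases before the start. Irgm2 had the same pair at 75 and 64 bases. In global alignments with gaps counted as columns, the 250-base sequences of Igtp and Irgm2 were identical in 68.9% of columns (197 identical bases), against 47.6% to 55.4% for the other pairs of members. A match is a string of letters and was not tested as a binding site. The members came from a list of interferon gamma-inducible genes, so their share of matches is no independent result.

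**Figure D1:**
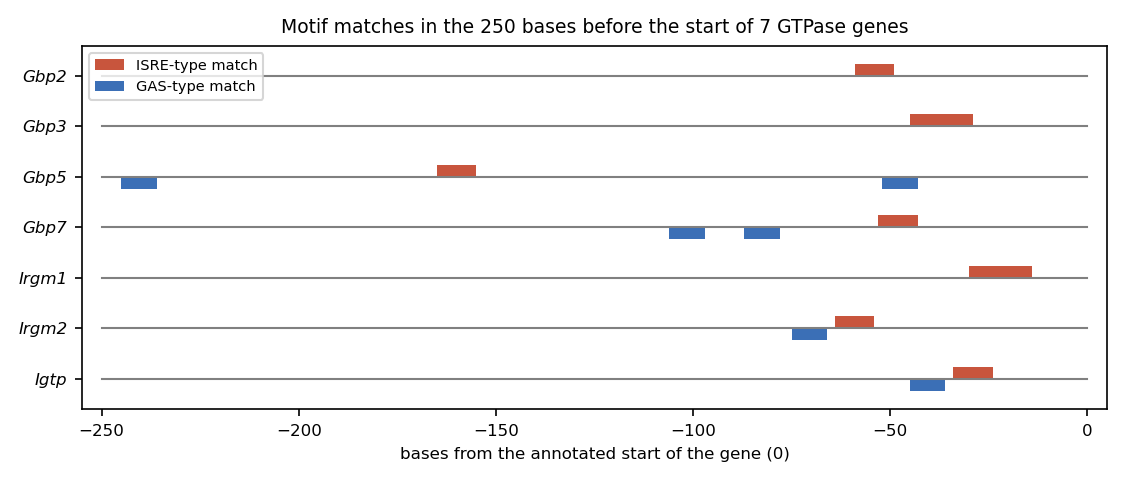
Positions of ISRE-type (red) and GAS-type (blue) matches along the 250 bases before the annotated start of 7 GTPase genes; the x axis is bases from the start. Irgm2 and Igtp show the same pair of adjacent matches, while Gbp5 has its ISRE-type match 165 bases before the start, farther than the other 6.

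Each library held 15652783 to 18341956 reads on genes, and each member was counted with 63 to 2554 reads per library. Counting error was not compared with the spread between libraries, and it weighs most on the members with few reads. The labelled tissue was checked with 6 markers of colon epithelium. All were present in every library, among them Epcam at 663 to 856 FPKM (mapped fragments scaled to gene length and library size). Before any comparison, PI-2 and PI-5 stood apart from the others in Hoxb13, a homeobox gene of the distal colon, with 0.417 and 20.9 FPKM against 211 to 341 FPKM in the other 8 libraries. They also stood apart in markers of the epithelial check. Cdx2 was at 123 and 118 FPKM against 12.7 to 53.3, Krt20 at 644 and 680 against 196 to 278, and Car1 at 3568 and 2334 against 165 to 845. Slc26a3, the chloride and bicarbonate exchanger of colon enterocytes, was lower there, at 59.5 and 146 FPKM against 204 to 510. CN-1, CN-2 and CN-3 were low in Dbp, a clock output gene, with 1.79 to 6.69 FPKM against 12.4 to 54.3 FPKM in the others. In tissue RNA, fewer cells of a type and less RNA per cell cannot be told apart.

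The GTPase genes were highest in PI-5 and PI-2 and next highest in CN-1, and the other 7 libraries lay below these on both diets. PI-5 and PI-2 were the top pair for 9 of the 10 genes. Of all 12345 genes tested, 13.9% had both of these libraries above the other 8. CN-1 was the highest normal diet library for all 10 genes, against 25.8% of all genes tested. The summed FPKM of the 10 genes was 235 in PI-5, 182 in PI-2 and 114 in CN-1, and 55.8 to 74.0 in the other libraries. PI-1, PI-3 and PI-4, with sums of 61.3 to 63.0, lay inside the range of the normal diet.

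**Figure D2:**
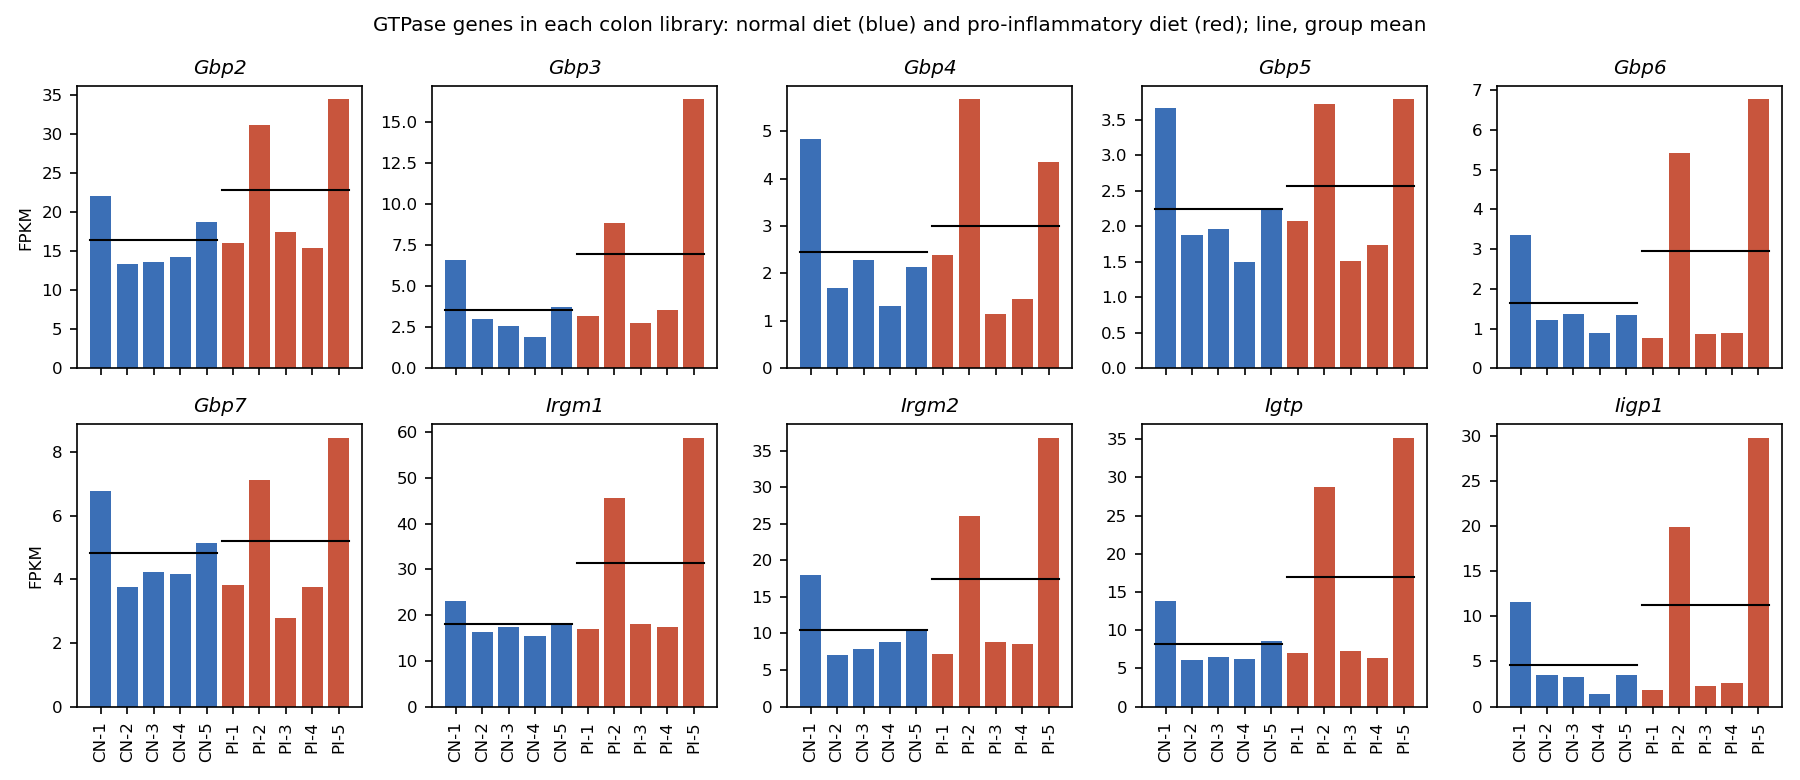
FPKM of the 10 GTPase genes (1 panel each, y axes differ) in the 5 normal diet (blue) and 5 pro-inflammatory diet (red) libraries, with a line at each group's mean. PI-5 is the highest bar in 9 panels and PI-2 in the Gbp4 panel, and CN-1 is the highest blue bar in all 10.

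Among the GBPs of chromosome 3, Gbp2, which helps to break pathogen vacuoles and to activate caspase-11, had the highest level. Its FPKM was 22.1, 13.4, 13.6, 14.3 and 18.8 in CN-1 to CN-5 and 16.1, 31.3, 17.5, 15.4 and 34.5 in PI-1 to PI-5. PI-2 and PI-5 exceeded every normal diet library, while PI-1, PI-3 and PI-4 fell among them. The mean was 16.4 ± 3.84 FPKM (SD, n = 5) on the normal and 22.9 ± 9.18 FPKM (SD, n = 5) on the pro-inflammatory diet. The log2 fold change, taken as pro-inflammatory minus normal diet on log2(FPKM + 1), was 0.40 (SE 0.24, limma adjusted p = 0.395).

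Gbp3, the neighbour of Gbp7 and Gbp2, had 6.61, 3.02, 2.59, 1.91 and 3.75 FPKM in CN-1 to CN-5. In PI-1 to PI-5 it had 3.19, 8.85, 2.77, 3.53 and 16.4 FPKM. PI-5 stood well above PI-2 here, at 5.13 times the median of PI-1, PI-3 and PI-4 against 2.77 times. The log2 fold change was 0.60 (SE 0.43, limma adjusted p = 0.462).

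Gbp5, known for promoting assembly of the NLRP3 inflammasome, was among the lowest of the 10 genes. It had 3.66, 1.88, 1.96, 1.5 and 2.23 FPKM in CN-1 to CN-5 and 2.07, 3.73, 1.51, 1.74 and 3.79 FPKM in PI-1 to PI-5. CN-1, PI-2 and PI-5 were nearly level and above the other 7. Gbp7, which has been linked to delivery of oxidase and autophagy components to phagosomes, had 6.79, 3.77, 4.22, 4.16 and 5.15 FPKM in CN-1 to CN-5. In PI-1 to PI-5 it had 3.83, 7.11, 2.80, 3.77 and 8.45 FPKM. Their diet means were close, with log2 fold changes of 0.11 for Gbp5 and 0.03 for Gbp7 (limma adjusted p = 0.801 and 0.965). The 95% interval for Gbp7 ran from -0.53 to 0.58.

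The GBPs of chromosome 5 were among the lowest of the 10 genes. Gbp4 had 4.84, 1.69, 2.28, 1.32 and 2.13 FPKM in CN-1 to CN-5 and 2.38, 5.67, 1.14, 1.47 and 4.34 FPKM in PI-1 to PI-5. It was the only one of the 10 genes with CN-1 above PI-5. Gbp6 had 3.35, 1.22, 1.37, 0.878 and 1.34 FPKM in CN-1 to CN-5 and 0.764, 5.43, 0.866, 0.896 and 6.77 FPKM in PI-1 to PI-5. PI-1, PI-3 and PI-4 were 3 of its 4 lowest values, on only 63, 74 and 69 reads. PI-2 and PI-5 were 6.27 and 7.82 times the median of these 3 libraries. Of 100-base stretches in Gbp6 transcripts, 64.5% also occur in other genes, 59% in the gene model Gm43302, so its level is uncertain where reads could be split. For Gbp7 10% were shared, mostly with Gm43802.

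In the regulatory IRGs PI-5, PI-2 and CN-1 were again the 3 highest libraries, in that order. Irgm1 had 23.2, 16.2, 17.4, 15.4 and 18.1 FPKM in CN-1 to CN-5 and 17.0, 45.5, 18.1, 17.3 and 58.8 FPKM in PI-1 to PI-5. Its normal diet values were the most even of the 10 genes, with a coefficient of variation of 16.8%, and CN-1 was only 1.38 times the median of CN-2 to CN-5. The diet means were 18.1 ± 3.04 and 31.3 ± 19.6 FPKM (SD, n = 5 each), with a log2 fold change of 0.57 (SE 0.34, limma adjusted p = 0.387).

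Irgm2, which is found at the Golgi, had 18.0, 7.10, 7.87, 8.78 and 10.5 FPKM in CN-1 to CN-5 and 7.16, 26.1, 8.78, 8.52 and 36.8 FPKM in PI-1 to PI-5. Igtp, found at the endoplasmic reticulum, had 13.8, 6.15, 6.49, 6.22 and 8.53 FPKM in CN-1 to CN-5. On the other diet it had 7.03, 28.7, 7.29, 6.42 and 35.2 FPKM in PI-1 to PI-5. In both genes CN-1 was 2.16 times the median of CN-2 to CN-5, and no normal diet library reached PI-2 or PI-5. The log2 fold change was 0.47 (SE 0.44) for Irgm2 and 0.66 (SE 0.48) for Igtp, the highest of the 10 (limma adjusted p = 0.572 and 0.467). Igtp and Irgm2 share 162 exon bases on the same strand, and 5.16% and 3.01% of their 100-base stretches, so a small part of their reads could be split between them.

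The effector Iigp1 varied most. It had 11.6, 3.51, 3.22, 1.37 and 3.49 FPKM in CN-1 to CN-5 and 1.89, 19.9, 2.26, 2.66 and 29.8 FPKM in PI-1 to PI-5. PI-5 was 13.2 times, and PI-2 8.80 times, the median of PI-1, PI-3 and PI-4, and CN-1 was 3.44 times that of CN-2 to CN-5. The diet means were 4.63 ± 3.98 and 11.3 ± 12.9 FPKM (SD, n = 5 each). The log2 fold change of 0.62 had a standard error of 0.73, larger than the estimate itself (limma adjusted p = 0.657).

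**Figure D3:**
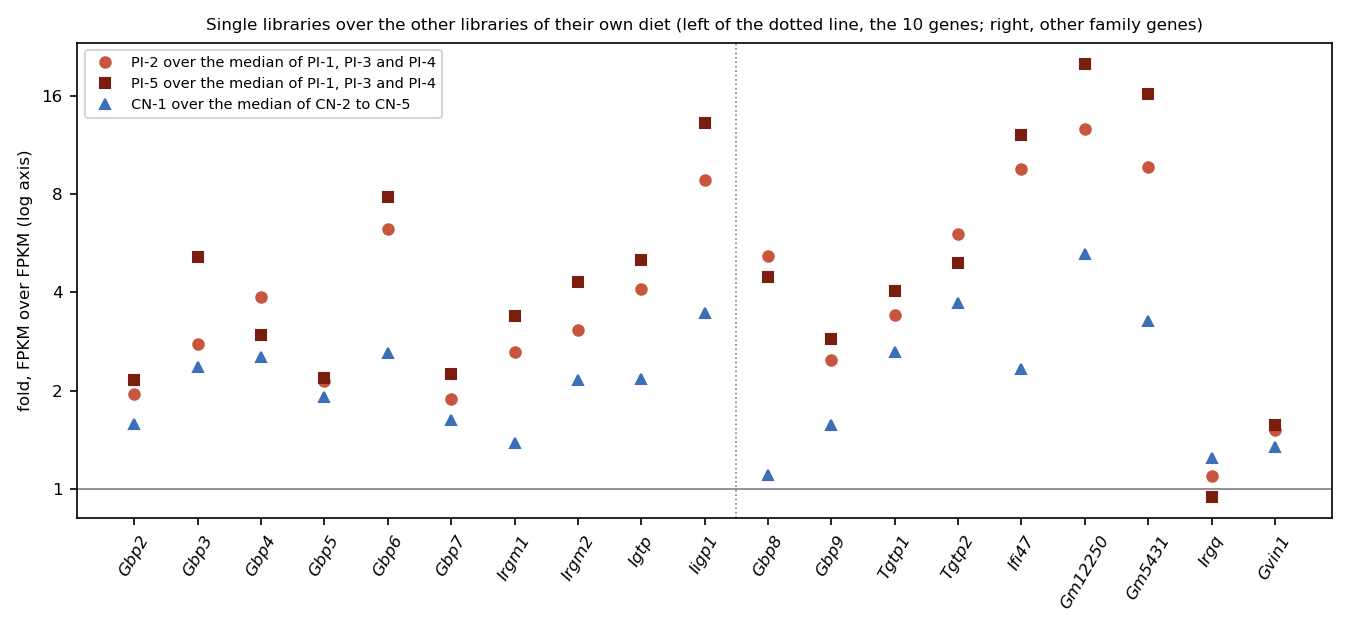
Fold of PI-2 and PI-5 over the median FPKM of PI-1, PI-3 and PI-4, and of CN-1 over the median of CN-2 to CN-5, on a log axis, for the 10 GTPase genes and 9 other family genes. Iigp1 has the highest folds of the 10 (13.2 in PI-5), Gbp2 among the lowest (2.15), and Irgq lies near 1, between 0.946 and 1.24.

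By mean FPKM, which is per length and so can be compared between genes, the order on the normal diet was Irgm1 (18.1), Gbp2 (16.4), Irgm2 (10.4), Igtp (8.23), Gbp7 (4.82), Iigp1 (4.63), Gbp3 (3.58), Gbp4 (2.45), Gbp5 (2.25) and Gbp6 (1.63). On the pro-inflammatory diet the means of Iigp1 (11.3) and Gbp3 (6.94) stood above that of Gbp7 (5.19), and Gbp6 (2.94) above Gbp5 (2.57). These changes of order rested on PI-2 and PI-5. Gbp3 was above Gbp7 in 2 of 5 libraries of that diet, and Gbp6 above Gbp5 in 2 of 5. In PI-1, PI-3 and PI-4, Gbp7 was above both Iigp1 and Gbp3. The ranges of all neighbours in both orders overlapped. Within libraries the order was firmer in places: Gbp2 was above Irgm2 in 5 of 5 normal diet libraries, and Irgm1 above Gbp2 in 5 of 5 pro-inflammatory diet libraries and 4 of 5 on the normal diet. The 4 IRGs made up 66.0% and 68.4% of the summed FPKM in PI-2 and PI-5, against 53.9% to 58.4% in the other 8 libraries, CN-1 included.

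In the comparison of the diets, all 10 genes had a higher mean on the pro-inflammatory diet and none passed the test. Their log2 fold changes ran from 0.03 (Gbp7) to 0.66 (Igtp), with a median of 0.44 against -0.01 over all 12345 genes tested, of which 47.1% were above 0. With limma, adjusted p values ran from 0.387 to 0.965, and none of the 10 had an unadjusted p under 0.05, against 17.4% of all genes in either direction and 8.16% in the higher direction. No gene of the whole table passed the adjusted threshold of 0.05 (0% of 12345, with 2149 at an unadjusted p under 0.05, and 0 also with limma voom on the recovered reads). For no member did the diets separate without overlap, which 3.83% of all genes did, 1.77% with the pro-inflammatory diet higher. Two-sided exact permutation p values ran from 0.198 to 0.952, where the smallest possible is 0.00794.

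The direction rested on the libraries low in Hoxb13. Without PI-2 and PI-5, 9 of the 10 genes had a lower mean log2 value on the pro-inflammatory diet, as did 51.0% of all genes, and Gbp2 was at 0.01. The median was then -0.23, from -0.56 (Iigp1) to 0.01 (Gbp2), and none passed (limma adjusted p from 0.325 to 0.969). This lower side rested in turn partly on CN-1. With CN-1 left out as well, 4 genes were higher (Gbp2, Gbp3, Irgm1 and Igtp) and 6 lower, with a median of -0.06 and adjusted p from 0.448 to 0.949. With Hoxb13 as a covariate, 4 genes were higher and 6 lower, with a median of -0.08. Hoxb13 was low in PI-2 and PI-5 alone, so this covariate mainly sets those libraries apart and is no separate check. With the difference between the smooth muscle and epithelial scores as a covariate, all 10 genes stayed higher, with a median of 0.53, and none passed. Leaving out PI-5 alone gave a median of 0.12 and PI-2 alone 0.25. Leaving out CN-1 alone gave 0.59. The settings that leave out more than 1 library and the Hoxb13 covariate were chosen after the values had been seen.

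**Figure D4:**
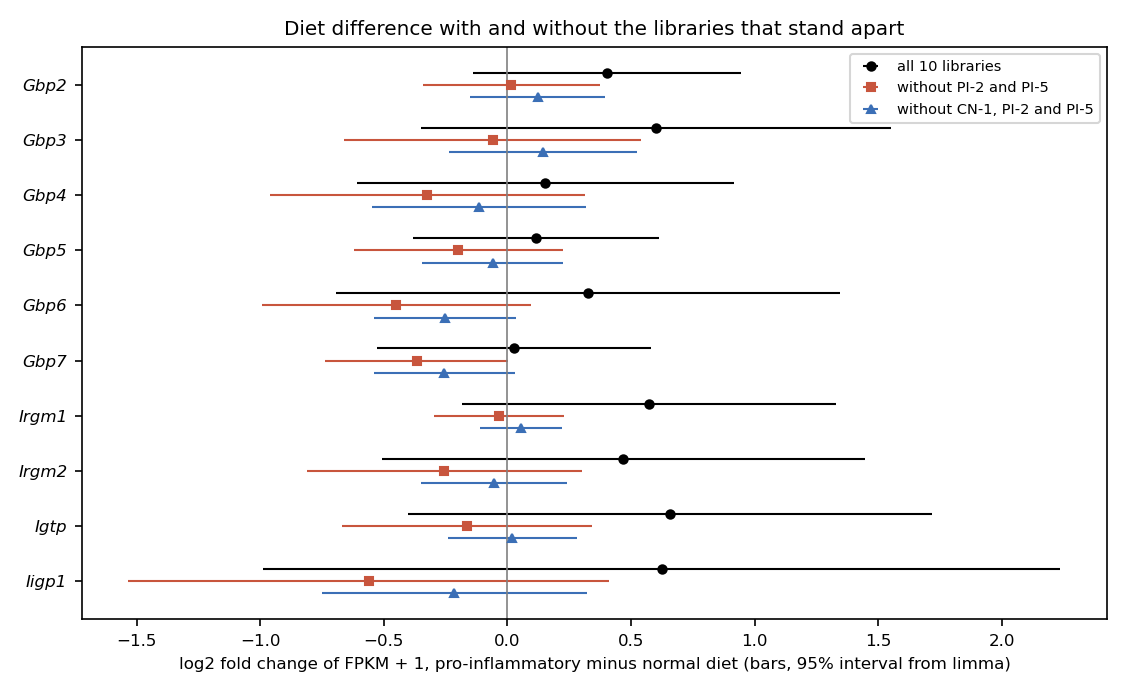
Log2 fold change of FPKM + 1, pro-inflammatory minus normal diet, for each GTPase gene with its 95% interval from limma, over all 10 libraries (circles), without PI-2 and PI-5 (squares) and without CN-1, PI-2 and PI-5 (triangles). All circles lie above 0, 9 of 10 squares below it and the triangles on both sides, and every circle's interval spans 0.

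Other genes of the 2 families mostly had the same pattern. Of 19 listed, 18 were in the table and 9 were expressed enough to be tested. Of these 9, 8 had a log2 fold change above 0 and 1 below, against 47.1% of all genes tested above 0. None was called by limma (0% of all genes were). PI-2 and PI-5 were above the other 8 libraries for 7 of the 9, against 13.9% of all genes. Ifi47, an effector IRG also known as Irgd, had 28.2 and 35.9 FPKM in PI-2 and PI-5 against 2.08 to 7.55 in the others. Gm12250 had 9.05 and 14.3 FPKM against 0.378 to 2.86, and Gm5431 had 9.63 and 16.1 FPKM. In all 3 the highest of the other 8 libraries was CN-1. The log2 fold changes were 0.93 for Ifi47, 0.97 for Gm12250 and 1.09 for Gm5431, and they were 0.54 for Tgtp1, 0.44 for Tgtp2, 0.46 for Gbp8 and 0.19 for Gbp9. Irgq, an IRG-like gene, was level across all libraries (5.83 to 9.08 FPKM, log2 fold change 0.00), and Gvin1, a very large interferon-inducible GTPase, had a log2 fold change of -0.15. The remaining 9 (Gbp2b, Gbp10, Gm4951, Gm4841, Gm12185, F830016B08Rik, 9930111J21Rik1, 9930111J21Rik2 and Irgc1) were below the filter.

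Upstream of the GTPases, Ifng itself was barely detected, with 0 to 5 reads per library (0 to 0.264 FPKM) and no reads in CN-4, CN-5 and PI-1. It had 5 reads in CN-2, 5 in PI-2 and 4 in PI-5, and 0 or 1 in the others, CN-1 included. These counts are too low to compare. The receptor chains and kinase had close means: Ifngr1 had 153 ± 24.6 and 154 ± 24.5 FPKM, Ifngr2 81.1 ± 8.77 and 77.0 ± 5.58 FPKM, and Jak2 10.7 ± 1.01 and 11 ± 0.809 FPKM on the normal and pro-inflammatory diets (SD, n = 5 each). Within its diet Ifngr1 was lower in PI-2 (125 FPKM) and PI-5 (132) than in PI-1, PI-3 and PI-4 (161 to 178). Its normal diet values ran from 131 to 184 FPKM. Irf1 had a log2 fold change of 0.31, Stat2 of 0.61 and Nlrc5, the activator of MHC class I genes, of 0.59. Irf8, an interferon-regulated factor of myeloid cells, had 17.7 ± 2.0 and 25 ± 5.27 FPKM (SD, n = 5 each). Its diets did not overlap, as in 3.83% of all genes tested, yet it did not pass (exact permutation p = 0.00794, limma adjusted p = 0.173). Irf8 had the smallest p of its list, so these values are those of a picked gene. Of the 18 signalling genes tested, 15 were higher and 3 lower, against 47.1% of all genes tested that were higher. Of the 18, 1 was higher at an unadjusted limma p under 0.05, against 8.16% of all genes. PI-2 and PI-5 were above the other 8 libraries for 9 of the 18, against 13.9% of all genes.

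Other targets of interferon followed the same libraries. Of 18 tested interferon gamma targets outside the GTPases, all 18 had a log2 fold change above 0 (median 0.47), 4 had an unadjusted p under 0.05 and 17 had PI-2 and PI-5 above the rest. The median without PI-2 and PI-5 was 0.02. Psmb10, an immunoproteasome subunit, had a log2 fold change of 0.43, Psme1 of 0.38 and Psmb9 of 0.75. The chemokine Cxcl9 had 5.68 and 4.56 FPKM in PI-2 and PI-5 against 0.234 to 0.895 FPKM in the others, where CN-1 (0.669) was not the highest normal diet library. Cxcl10 had a log2 fold change of 0.52. Of 18 antiviral genes of type I interferon, such as Oas1a (0.66), Bst2 (0.77) and Xaf1 (0.78), all 18 were above 0 (median 0.94, 2 at an unadjusted p under 0.05) and all 18 had PI-2 and PI-5 above the rest. CN-1 was the highest normal diet library for 14 of these 18 and 12 of the 18 interferon gamma targets. None of these genes was called by limma (0% of all genes were). Over all genes tested, 47.1% had a log2 fold change above 0, and 8.16% were higher at an unadjusted limma p under 0.05. PI-2 and PI-5 were above the rest for 13.9% of all genes, and CN-1 was the highest normal diet library for 25.8%.

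Genes by which GTPases are placed on membranes, and those that act with them, were counted as separate lists. None of 11 genes of ATG8 conjugation, which directs GBPs and IRGs to vacuoles, had PI-2 and PI-5 above the rest. Of these, 6 had a log2 fold change above 0 and 5 below, with a median of 0.02, from values such as 0.08 for Gabarap, -0.18 for Map1lc3b and -0.37 for Gabarapl1. Of 9 tested caspase and inflammasome genes, 6 were above 0 and 3 below (median 0.13), and 4 had PI-2 and PI-5 above the rest. Over all genes tested, 47.1% were above 0 and 13.9% had PI-2 and PI-5 above the rest. Il1b had a log2 fold change of 0.41 and Casp1 of 0.23. Aim2, a sensor of cytosolic DNA, had 8.63 ± 1.11 and 6.73 ± 0.439 FPKM (SD, n = 5 each) without overlap (exact permutation p = 0.00794, limma adjusted p = 0.173). It was named for the smallest p of its list, and 3.83% of all genes tested had no overlap between the diets.

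**Figure D5:**
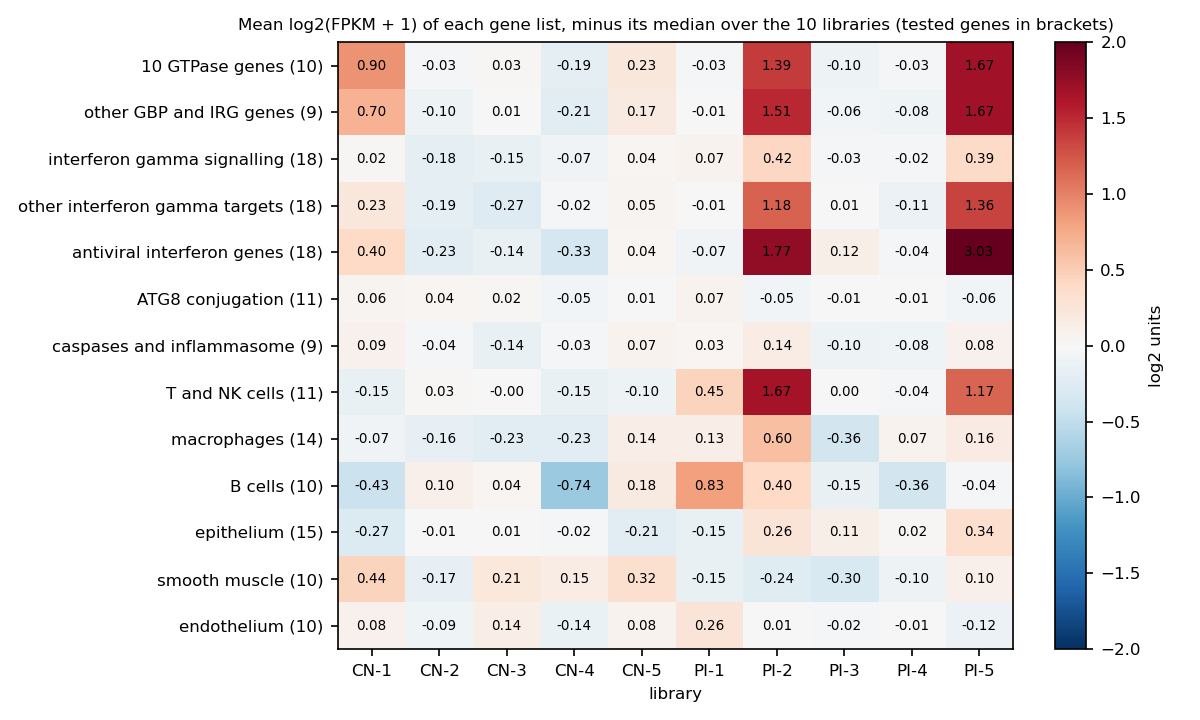
Mean log2(FPKM + 1) of each gene list in each library, minus that list's median over the 10 libraries (colour and printed value, log2 units; tested genes in brackets). The GTPase row is at 1.39 in PI-2, 1.67 in PI-5 and 0.90 in CN-1, while the T and NK cell row is at 1.67, 1.17 and -0.15 in the same libraries.

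Markers of T and NK cells were high in PI-2 and PI-5, and their part in the result was not tested. The summed FPKM of 19 T and NK cell markers was 101 in PI-2 and 67.0 in PI-5, against 16.6 to 21.8 on the normal diet and 20.1 to 34.6 in PI-1, PI-3 and PI-4, and 2 of the 19 were listed at 0 in at least 1 library. Of the 11 tested, all had a log2 fold change above 0, with 1.14 for Ccl5, 0.67 for Cd2 and 0.56 for Klrd1. An unadjusted limma p under 0.05 was found for 5 of the 11, against 8.16% of all genes tested in the higher direction. CN-1 was the highest normal diet library for 0 of these 11, and its sum of 17.3 was inside the range of its diet. The sum of 15 macrophage markers was 495 in PI-2 and 356 in PI-5, against 282 to 438 in the other 8 libraries. Of the 14 tested, 6 had PI-2 and PI-5 above the rest and 13 a log2 fold change above 0, with 0.65 for Ly6c2, 0.53 for Aif1 and 0.32 for Tyrobp. Of 10 B cell markers none had PI-2 and PI-5 above the rest, and CN-1 was the highest normal diet library for none. Their log2 fold changes were 0.52 for Fcrla, 0.29 for Bank1 and 0.40 for Cd79b. Over all genes tested, 13.9% had PI-2 and PI-5 above the rest and 47.1% a log2 fold change above 0. CN-1 was the highest normal diet library for 25.8% of all genes.

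Smooth muscle genes were highest on the normal diet in CN-1, closely followed by CN-5. CN-1 was the highest normal diet library for 9 of 10 smooth muscle genes, against 25.8% of all genes tested. Their summed FPKM was 4030 in CN-1 against 2709 to 3786 in CN-2 to CN-5. All 10 had a log2 fold change below 0, while 47.1% of all genes tested were above 0. Of the 10, 7 had an unadjusted limma p under 0.05, against 17.4% of all genes in either direction. The log2 fold change was -0.42 for Myocd, -0.38 for Myl9 and -0.36 for Acta2. PI-2 and PI-5 were not alike in the summed FPKM of these genes, with 2365 and 3244. Among 15 epithelial genes, 6 had PI-2 and PI-5 above the rest, against 13.9% of all genes tested. CN-1 was highest on its diet for 0 of the 15. Car1, an enzyme of colon enterocytes, had a log2 fold change of 1.88 and Phgr1 of 0.48. Of 10 endothelial genes 4 were above 0 and 6 below, with 0.23 for Emcn, -0.19 for Cldn5 and 0.11 for Eng.

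The genes most like the members over the 10 libraries were ranked by Spearman's rho with the mean of the members' standardized log2 values. They were the best of all tested genes, so the values are descriptions without a test, and the 10 points share the PI-2 and PI-5 libraries. Mov10, an RNA helicase of antiviral defence, had a rho of 1 over 10 libraries and over the 8 without PI-2 and PI-5. Tlr3, a receptor for double-stranded RNA, had 0.964 and 0.929, and its FPKM was 14.7 in PI-5, 11.4 in PI-2, 10.3 in CN-1 and 6.85 to 8.0 in the other 7. Adamdec1, a metalloprotease of the intestinal lamina propria, had 0.964 and 0.952, with 346 and 250 FPKM in PI-2 and PI-5 against 58.2 to 94.4 FPKM. Smim14, Wrn, Mxi1, Sft2d2 and Ltbp1 had rho values of 0.964 to 0.976 over 10 libraries.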

How the data were processed

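Gene expression was measured in 10 wild-type mouse colon samples. Per the labels' protocols, a stranded mRNA kit and paired-end sequencing were used. The authors deposited 1 FPKM value per gene and sample. The submitters' processing notes list the mm10 build and, without roles, DESeq, StringTie, Cufflinks, HTSeq, Bowtie2, HISAT2 and Trimmomatic. Strand use in counting was not given in the sources used here. Since FPKM is scaled to the library total, very abundant genes lower the rest.

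The values were whole multiples of 1 read, within 0.001 read, for 18398 of 18398 genes, which gave the reads per library. No library was a copy of another. Genes averaging 1 FPKM or more (12345) entered a limma 3.58.1 fit of log2(FPKM + 1) (R 4.3.3, eBayes with trend, Benjamini-Hochberg over all of them at 0.05), checked on simulated data. Such fold changes understate those of low genes. Exact permutation tests used the 252 splits of 10 libraries. Genes named are the members, their listed relatives, up to 3 per list with the smallest p, chosen pathway genes, and the 8 most alike; some genes that this rule takes are left out here. The members, lists and tests were chosen with earlier results of these data known. Alternatives changed the pseudocount, filter, scaling, variance model, weights, covariates and libraries. Same-numbered samples did not deviate together (correlations from -0.26 to 0.06), so the numbers were not used as pairs. Figures used matplotlib 3.10.9.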

Additional observations from a re-analysis of the deposited data

Results flagged for a closer look

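In 3 of 20 groups of 5 libraries (10 genes on 2 diets), 1 library lay farther from the rest than Dixon's critical value of 0.710 allows, where chance gives about 1 group in 20 and the genes share their libraries. All 3 were CN-1, the highest normal diet library. Gbp4 was at 4.84 FPKM there, with a gap to the next library of 0.726 of the group's range. Gbp6 was at 3.35 FPKM, with a gap of 0.800, and Iigp1 at 11.6 FPKM, with a gap of 0.790. The test looks for 1 library apart, so it can hardly flag PI-2 or PI-5, which were high together. In Iigp1 these were at 19.9 and 29.8 FPKM against 1.89 to 2.66 in PI-1, PI-3 and PI-4. The lack of a flag on the pro-inflammatory diet therefore does not mean that its libraries were alike.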

How the results depend on the processing

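Under 26 alternatives, of which 4 were chosen after seeing the data, no member and no other gene was called (limma; 502 to 2887 genes at an unadjusted p under 0.05), and the lowest adjusted p of a member was 0.260. Of 257 fold changes of members, 222 kept their direction and 35 turned, where the cause was not tested beyond what leaving out libraries shows. The median of 0.44 turned without PI-2 and PI-5 (-0.23), also without CN-1 (-0.057), with the Hoxb13 covariate (-0.082) and with array weights (-0.043). The Hoxb13 covariate mainly sets PI-2 and PI-5 apart, so it is not separate from leaving them out. Leaving out each library in turn gave medians of 0.12 to 0.61. Without PI-2 and PI-5, the log2 fold changes that turned were -0.060 for Gbp3, -0.32 for Gbp4, -0.20 for Gbp5, -0.45 for Gbp6, -0.37 for Gbp7, -0.033 for Irgm1, -0.26 for Irgm2, -0.16 for Igtp and -0.56 for Iigp1. Without CN-1 as well they were -0.11 for Gbp4, -0.059 for Gbp5, -0.25 for Gbp6, -0.26 for Gbp7, -0.055 for Irgm2 and -0.21 for Iigp1. With the Hoxb13 covariate they were -0.25 for Gbp4, -0.13 for Gbp5, -0.24 for Gbp6, -0.25 for Gbp7, -0.038 for Irgm2 and -0.24 for Iigp1. Array weights gave -0.22 for Gbp4, -0.12 for Gbp5, -0.18 for Gbp6, -0.22 for Gbp7 and -0.17 for Iigp1. With TPM scaling Gbp7 was at -0.013. Leaving out single libraries also turned Gbp7 (-0.15 to 0.18; below 0 without CN-2, CN-3, CN-4, PI-2 or PI-5), Gbp4 (-0.066 to 0.36; below 0 without PI-2) and Gbp5 (-0.0050 to 0.25; below 0 without PI-2 or PI-5). Without the Dbp-low CN-1, CN-2 and CN-3 the median was 0.55, and with the smooth muscle minus epithelium covariate 0.53. The replicate block left the fold changes as they were (median 0.44), with 0 genes called. A mean FPKM of at least 5 left 7 members. Every member held at least 63 reads in each library, but Ifng, at 0 to 5 reads, was too low to compare.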
